A study of Mus musculus with 22 samples.

Results

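Messenger RNA of 34 hepatocyte genes was followed in 22 libraries of cells taken from mouse livers. The set held 21 genes of proteins that hepatocytes release into blood, 11 genes of metabolic enzymes and 2 genes of nuclear receptors. The genes were picked by name as textbook products of the hepatocyte, with the cytochrome P450 genes left aside. That rule uses no measured value, but the genes were chosen with earlier results of these data known. All 34 were among the 55367 genes listed in the count table, and all 34 were among the 22409 genes with enough counts to be tested. The least abundant members passed with little: the highest count in any library was 34 for G6pc and 21 for Nr1i3.

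The study sequenced total RNA from cells labelled HSC (hepatic stellate cells), taken from livers of mice kept on chow or on CDA-HFD. The latter is a high-fat diet without choline and with defined amino acids, and the series calls these mice a MASH/fibrosis model. Livers were taken at 4 zeitgeber times, counted in hours from lights on: ZT0 (lights on), ZT6 (the middle of the light period), ZT12 (lights off) and ZT18 (the middle of the dark period). The chow group, called control here, held 3, 2, 2 and 3 libraries at these times, and the CDA-HFD group, called diet here, held 3 at each. All mice were given as 20 weeks old with no further treatment. The growth notes put the start of feeding at 8 weeks of age and its length at 12 weeks, which fits that age. Another field names 6 months, which is longer than the stated age of the mice, so the fields conflict. The sources used here state neither genotype, strain and sex nor how the cells were isolated. Nothing states that the libraries of a group came from separate animals, so p-values measure only the spread between these libraries.

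Hepatocytes are the parenchymal cells of the liver. They secrete most plasma proteins, among them albumin, transport proteins, apolipoproteins, clotting factors and protease inhibitors, and they carry the urea cycle, gluconeogenesis and much of amino acid breakdown. Their gene programme is maintained by factors such as HNF1, HNF4 and C/EBP proteins, and many of its enzymes follow feeding and the daily clock. Stellate cells, in contrast, store vitamin A and make matrix when activated, and are not a known major source of these plasma proteins.

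Library depth ran from 19754805 to 41665623 counts, and 1 entry, CT010467.1, took 9.98% to 21.7% of them. The 34 members together made up 0.0618% to 0.112% of the counts in control libraries and 0.160% to 0.346% in diet libraries, so they are a small part of each library. Levels are given in CPM, the counts of a gene brought to a common library size with TMM scaling in edgeR. The label HSC was not matched by the defining stellate genes: Lrat, of retinol storage, was at 0 to 3.24 CPM in controls and 0.642 to 3.65 CPM under diet, and Lrat, Hand2 and Lhx2 were each at 0 counts in at least 1 library. The summed level of 12 stellate and matrix markers was 303 to 1171 CPM in controls and 168 to 515 CPM under diet; the most abundant were Ecm1 and Dcn in controls (means 274 and 259 CPM) and Dcn and Rgs5 under diet (means 95.0 and 76.2 CPM). Marker sums of other cells moved with the diet: 8 endothelial markers summed to 11914 to 23810 CPM in controls and 802 to 1832 CPM under diet, 7 cholangiocyte markers to 368 to 958 CPM and 1331 to 5045 CPM, 7 lymphocyte markers to 211 to 861 CPM and 1334 to 3632 CPM, 7 macrophage markers to 282 to 1913 CPM and 636 to 2350 CPM, and 5 erythroid markers to 1212 to 3256 CPM and 1386 to 4774 CPM. Spp1 made most of the cholangiocyte sum: its mean was 485 of 604 CPM in controls and 2293 of 2826 CPM under diet. This sum thus largely follows 1 gene. Against the test described next, 0 of 8 endothelial markers rose and 8 fell, all 7 cholangiocyte, all 7 lymphocyte and all 5 erythroid markers rose, 4 of 7 macrophage markers rose and 1 fell, and 2 of 12 stellate markers rose and 4 fell. Of all tested genes 27.5% rose and 24.9% fell. In such bulk RNA, more cells of a type and more RNA per cell cannot be told apart, and the part of these marker differences in the results that follow was not tested. Control ZT0 replicate 2 and control ZT18 replicate 1 stood apart from the other control libraries: the first had the lowest endothelial sum of the controls, 11914 CPM, and the highest lymphocyte sum, 861 CPM, and the second the highest stellate and matrix sum, 1171 CPM. Over the 4 times together, the 25 calls among the members given next were kept without both libraries. This check kept control ZT6 replicate 2, which had the highest macrophage sum of the controls, 1913 CPM. Fits without that library are given below.

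Promoter sequences are shown for 4 members that the results turn on: Alb and Fga, which rose under diet and hold the HNF1 motif; Ahsg, with the greatest rise of the 34; and Gnmt, an enzyme gene that fell. Each runs 5′ to 3′ along the gene's strand, from 250 bases before to 50 after the RefSeq start on GRCm38.p6, and capitals mark matches to any of 6 motifs. The windows are chr5:90460620-90460919 on the plus strand for Alb, chr3:83025903-83026202 on the plus strand for Fga, chr16:22891765-22892064 on the plus strand for Ahsg, and chr17:46729116-46729415 on the minus strand for Gnmt.
Alb: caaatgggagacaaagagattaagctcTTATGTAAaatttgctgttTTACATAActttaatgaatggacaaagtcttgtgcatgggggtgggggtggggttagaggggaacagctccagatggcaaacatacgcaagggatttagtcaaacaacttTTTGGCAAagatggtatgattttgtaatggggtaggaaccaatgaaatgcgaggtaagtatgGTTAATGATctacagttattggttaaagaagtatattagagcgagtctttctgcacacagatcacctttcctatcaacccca
Fga: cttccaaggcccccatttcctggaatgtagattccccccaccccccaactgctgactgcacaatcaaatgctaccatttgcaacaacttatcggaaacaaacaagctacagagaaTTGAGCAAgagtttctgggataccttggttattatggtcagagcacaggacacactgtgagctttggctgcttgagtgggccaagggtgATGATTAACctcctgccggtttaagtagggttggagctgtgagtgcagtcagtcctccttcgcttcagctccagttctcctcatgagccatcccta
Ahsg: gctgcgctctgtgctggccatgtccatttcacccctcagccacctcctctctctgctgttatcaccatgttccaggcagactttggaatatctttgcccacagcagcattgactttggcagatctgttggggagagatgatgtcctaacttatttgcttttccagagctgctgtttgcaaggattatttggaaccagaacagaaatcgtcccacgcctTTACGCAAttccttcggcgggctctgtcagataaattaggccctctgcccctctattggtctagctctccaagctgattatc
Gnmt: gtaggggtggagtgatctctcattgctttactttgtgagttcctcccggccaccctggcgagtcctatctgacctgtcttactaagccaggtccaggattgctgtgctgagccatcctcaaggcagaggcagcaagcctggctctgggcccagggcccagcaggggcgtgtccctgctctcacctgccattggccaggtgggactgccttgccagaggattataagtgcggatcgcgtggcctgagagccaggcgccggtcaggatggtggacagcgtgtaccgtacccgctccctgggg

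The motifs were searched on both strands as exact letters: HNF1 as GTTAATNAT, HNF4 as CAAAGTCCA, C/EBP as TTGCNNAA, the E-box of clock proteins as CACGTG, the D-box of clock output factors as TTATGNAA, and the TATA box as TATAAA. RefSeq promoter windows were found for 26 of the 34 members, 29 windows in all, and none was found for Ttr, Trf, Hp, Apoc3, Serpina3k, Cps1, Arg1 and Mat1a. HNF1 letters stood in 3 of the 29 windows (10.3%) and in 0.801% of all 32851 promoter windows of the table. They began 32 bases before the start in Alb, 46 in Fga and 221 in G6pc. C/EBP letters stood in 10 of 29 windows (34.5%) against 10.8% of all windows, and D-box letters in 3 of 29 (10.3%) against 3.38%. The remaining motifs were near or below their share in all windows: the E-box in 2 of 29 (6.9%) against 7.15%, the TATA box in 4 of 29 (13.8%) against 13.6%, and HNF4 in 0 of 29 against 0.475%. In the Alb window the C/EBP match began 94 bases before the start and 2 D-box matches 223 and 204 bases before it. The Gnmt window held none of the 6 motifs. None stood in the windows of Ambp, Apoa1, Apoh, Fgg, Serpina1c and Hnf4a either, all of which rose under diet. G6pc, with the HNF1 letters, was not called. Whether motifs go with the diet change was not tested. In Rbp4 the C/EBP and D-box matches overlap. A match describes the letters of a window and is not evidence of binding.

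Diet and control libraries were compared over the 4 times together. This asks how the level of each hepatocyte gene differs, apart from the hour, between HSC-labelled cells from fibrosis-diet and from chow livers. Of the 34 members, 22 were higher and 3 lower under diet at an adjusted p under 0.05 (edgeR quasi-likelihood test, Benjamini-Hochberg adjustment over all tested genes), beside 27.5% of all tested genes higher and 24.9% lower. The secreted and the enzyme members differed in these counts. Of 21 secreted members 19 rose and 1 fell, with a median log2 change of 1.40, whereas of 11 enzyme members 2 rose and 2 fell, with a median of 0.12. The median over all tested genes was 0.08. Among the nuclear receptors Hnf4a rose and Nr1i3 did not pass. In 5 of 34 members (Alb, Ttr, Serpina1c, Ambp and Ahsg) every diet library lay above every control library, beside 7.35% of all tested genes, and in 0 of 34 every diet library lay below, beside 9.78%. The plot of log2 change by member sets these values side by side.

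**Figure D1:**
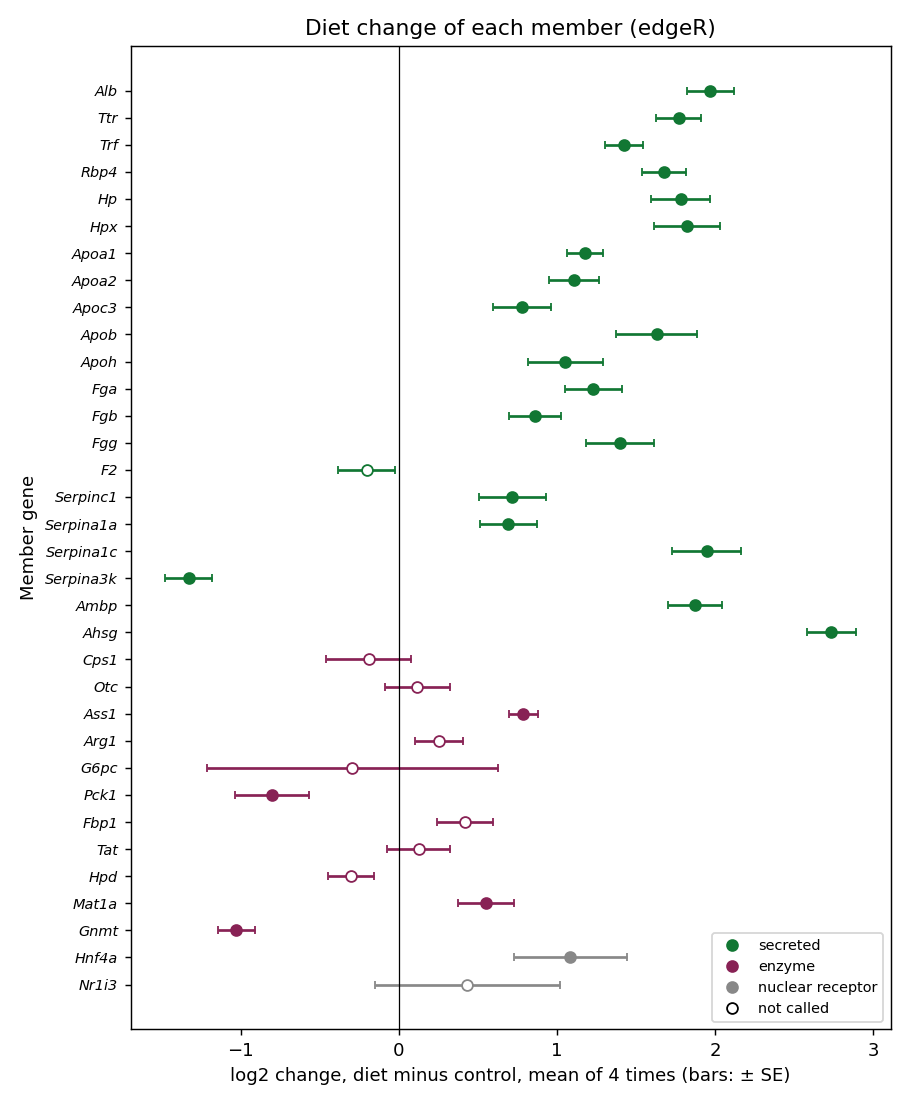
Log2 change (diet minus control, mean over 4 times, x axis) of each of the 34 members (y axis, ordered by role), from edgeR; bars are ± 1 SE, filled points passed an adjusted p of 0.05 and open points did not. Secreted members lie to the right of 0 apart from F2 and Serpina3k, and enzyme members lie between -1.03 for Gnmt and 0.79 for Ass1.

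All 6 carrier genes rose, with a median log2 change of 1.77. Alb encodes albumin, the main plasma protein and carrier of fatty acids; its gene is protein-coding and lies at chr5:90460897-90476602 on the plus strand (GRCm38). Alb ran from 88.8 CPM (lowest) through a median of 137 to 191 CPM (highest) in the 10 control libraries, and from 326 through 466 to 815 CPM in the 12 diet libraries. The groups do not overlap. The means were 136 ± 31.9 (SD, n = 10) and 515 ± 141 (SD, n = 12) CPM, a 3.79-fold difference and a log2 change of 1.97 ± 0.15 (SE; adjusted p = 4.1e-10, edgeR). The highest Alb levels were in diet ZT12 replicate 1 at 815 CPM and diet ZT6 replicate 1 at 673 CPM.

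Ttr, the carrier of thyroid hormone and of the retinol-binding protein, ran from 28.6 to 46.8 CPM in controls and from 81.9 to 199 CPM under diet, again with no overlap (log2 change 1.77 ± 0.14, adjusted p = 9.54e-10, edgeR). Rbp4, which carries retinol in plasma, had a median of 15.7 CPM in controls and 59.1 CPM under diet (log2 change 1.68 ± 0.14), and only its highest control, 34.5 CPM in control ZT12 replicate 1, reached into the diet range of 30.5 to 91.0 CPM. Hp, encoding haptoglobin, which binds free haemoglobin, rose by 1.78 ± 0.19, and Hpx, encoding hemopexin, which binds haem, by 1.82 ± 0.21 on the log2 scale. Both had wide control ranges, 4.58 to 48.1 CPM for Hp and 7.56 to 52.0 CPM for Hpx; the highest control value of each was in ZT6 replicate 2, and the next highest was 17.4 CPM for Hp and 25.0 CPM for Hpx. Trf, encoding the iron carrier transferrin, had medians of 198 and 507 CPM (log2 change 1.42 ± 0.12, adjusted p = 2.52e-09, edgeR). Its assignment is uncertain, since 79.8% of its 50-base stretches are also annotated in the overlapping entry Gm20425.

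The 5 apolipoprotein genes all rose, with a median log2 change of 1.10. Apoa1, the main protein of high-density lipoprotein, had a median of 32.6 CPM (range 23.9 to 47.0) in controls and 81.7 CPM (range 30.8 to 119) under diet, a log2 change of 1.18 ± 0.12 (adjusted p = 2.47e-08, edgeR). Its lowest diet values were those of ZT6. Apoa2, the other major protein of these particles, rose by 1.10 ± 0.16 on the log2 scale. Apob, the structural protein of very-low-density lipoprotein, rose by 1.63 ± 0.26 but at low levels, 0.781 to 4.58 CPM in controls and 3.25 to 11.01 CPM under diet. Apoh, a phospholipid-binding plasma protein, rose by 1.05 ± 0.24, and Apoc3, an inhibitor of triglyceride clearance, by 0.78 ± 0.18. The groups overlapped for each of these 5 genes.

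Of the 5 coagulation genes 4 rose, with a median log2 change of 0.86 over the 5. The fibrinogen chains are encoded by 3 neighbouring genes on chromosome 3: Fgg at chr3:83007724-83015049, Fga at chr3:83026076-83033627 and Fgb on the other strand at chr3:83040141-83049863. Fga had a median of 21.5 CPM (13.1 to 40.2) in controls and 54.4 CPM (27.1 to 81.4) under diet, a log2 change of 1.23 ± 0.18 (adjusted p = 6.39e-06, edgeR). Fgg rose by 1.40 ± 0.21 and Fgb by 0.86 ± 0.17, so the 3 chains moved the same way while their ranges overlapped between groups. Serpinc1, encoding antithrombin, which inhibits thrombin, rose by 0.72 ± 0.21 (adjusted p = 0.00723, edgeR). F2, the gene of prothrombin, did not pass: its medians were 11.5 and 10.1 CPM, and the log2 change was -0.20 ± 0.18 (adjusted p = 0.366, edgeR).

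The inhibitor genes held both the greatest rise and the only fall among the secreted members. Ahsg, encoding fetuin-A, a plasma glycoprotein that binds calcium phosphate, lies at chr16:22891277-22899449 on the plus strand. Ahsg ran from 25.4 through a median of 31.5 to 50.9 CPM in controls and from 155 through 217 to 372 CPM under diet. The lowest diet library was above the highest control. The means of 34.5 ± 8.83 (SD, n = 10) and 235 ± 66.6 (SD, n = 12) CPM differ 6.82-fold, and the log2 change was 2.73 ± 0.16 (adjusted p = 4.67e-12, edgeR). Ambp, the precursor of alpha-1-microglobulin and bikunin, had medians of 62.2 and 195 CPM with no overlap of the groups, 43.0 to 110 CPM against 123 to 429 CPM (log2 change 1.87 ± 0.17).

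Serpina3k, a serine protease inhibitor gene at chr12:104338486-104346144 on the plus strand, went the other way. It ran from 16.6 through a median of 23.7 to 37.8 CPM in controls and from 3.50 through 12.8 to 22.2 CPM under diet, a log2 change of -1.33 ± 0.15 (adjusted p = 1.56e-07, edgeR). Of the diet libraries 2, both of ZT18, reached into the control range, and the lowest 3 were those of ZT6. Of the alpha-1-antitrypsin genes, Serpina1c rose by 1.95 ± 0.22 (5.18 to 17.03 CPM in controls and 17.3 to 64.9 CPM under diet, without overlap) and Serpina1a by 0.69 ± 0.18 on the log2 scale. These genes are near-copies: 57.5% of the 50-base stretches of Serpina1a also occur in Serpina1c, and 69.4% of those of Serpina1c in Serpina1a, so the split of reads between them is uncertain; for Serpina3k the share with its nearest copy, Serpina3m, was 12.8%.

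**Figure D2:**
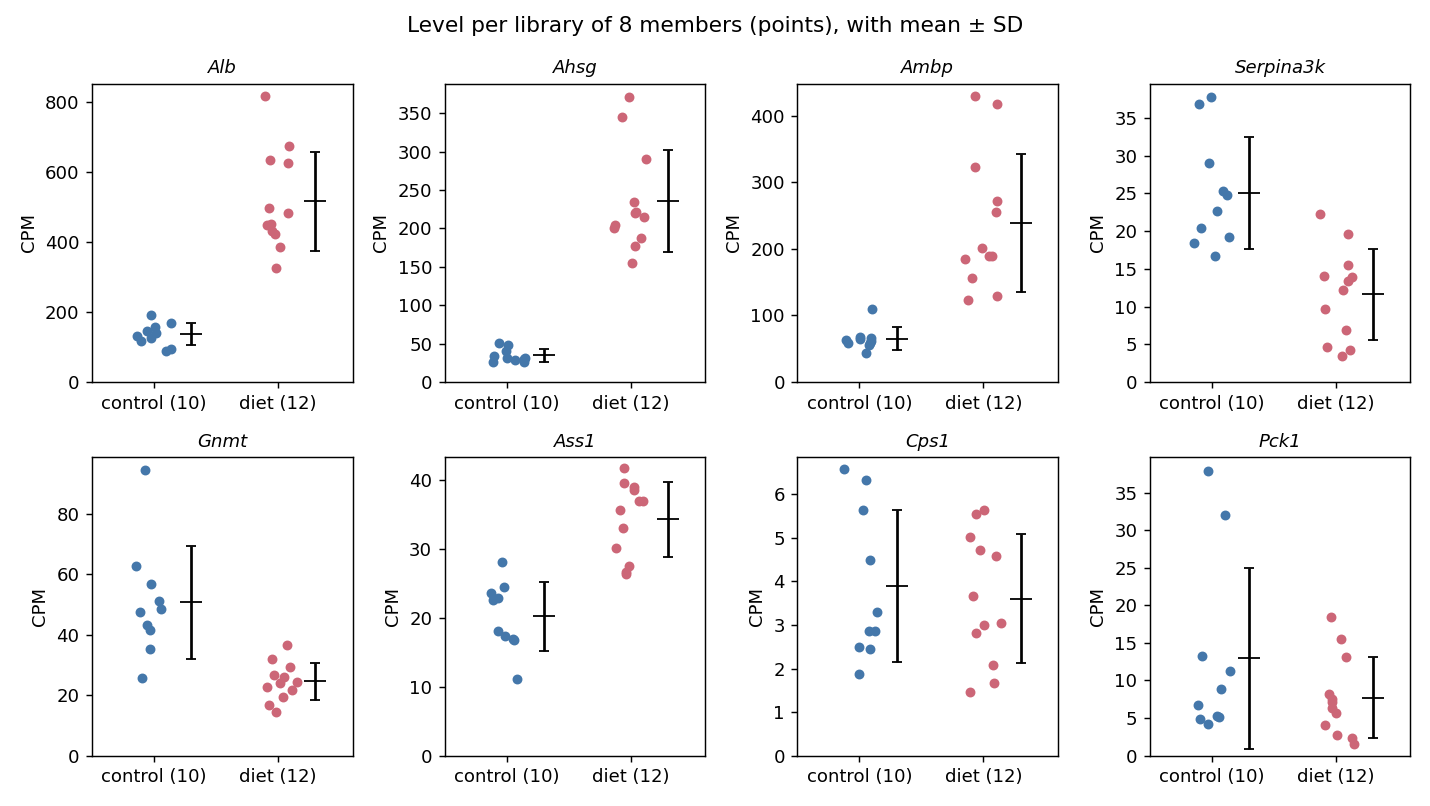
CPM (y axis, from 0) of 8 members in each control (10) and diet (12) library; points are libraries, spread sideways for visibility, and bars are the mean ± SD. Alb, Ahsg and Ambp do not overlap between the groups, Serpina3k and Gnmt are lower under diet, and Cps1 covers the same range in both.

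In the urea cycle, which turns ammonia into urea, 1 of 4 genes rose. Ass1, encoding argininosuccinate synthase, ran from 11.1 through 20.4 to 28.1 CPM in controls and from 26.3 through 36.3 to 41.8 CPM under diet (log2 change 0.79 ± 0.09, adjusted p = 2.16e-07, edgeR). Only the lowest diet libraries lay within the control range. Its value is uncertain, as 55.3% of the 50-base stretches of Ass1 also occur in the entry Gm5424. Cps1, carbamoyl phosphate synthetase and the entry step of the cycle, was at 1.87 to 6.59 CPM in controls and 1.47 to 5.64 CPM under diet, with a log2 change of -0.19 ± 0.27 (adjusted p = 0.589, edgeR). Otc, encoding ornithine transcarbamylase, had medians of 7.88 and 7.85 CPM (log2 change 0.12 ± 0.21, adjusted p = 0.676, edgeR). Arg1, arginase, which releases urea and is also made by some macrophages, had medians of 17.9 and 17.8 CPM (log2 change 0.25 ± 0.15, adjusted p = 0.178, edgeR). Arg1 passed when reads were scaled by library size only (adjusted p = 0.026) and without control ZT6 replicate 2 (adjusted p = 0.00327).

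In gluconeogenesis, the making of glucose from other molecules, 1 of 3 genes fell and none rose. Pck1, phosphoenolpyruvate carboxykinase, had medians of 7.85 CPM (4.16 to 37.8) in controls and 6.72 CPM (1.51 to 18.5) under diet, a log2 change of -0.80 ± 0.23 (adjusted p = 0.00617, edgeR). The call was lost without control ZT6 replicate 2, where the log2 change was -0.54 and the adjusted p 0.0576. Fbp1, fructose-bisphosphatase, had medians of 13.02 and 18.5 CPM and narrowly missed the threshold (log2 change 0.42 ± 0.18, adjusted p = 0.0555, edgeR). Under other settings it lay between 0.27 and 0.68 and passed in 11 of them, among them without both control libraries that stand apart (adjusted p = 0.00914). G6pc, the glucose-6-phosphatase that releases free glucose, was at 0 to 1.55 CPM in controls and 0 to 1.15 CPM under diet, too few counts to show a difference (log2 change -0.29 ± 0.92).

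Among the amino acid enzymes 1 of 4 rose and 1 fell. Gnmt, glycine N-methyltransferase, which uses up S-adenosylmethionine, lies at chr17:46725664-46729168 on the minus strand. It ran from 25.9 through a median of 48.0 to 94.7 CPM in controls and from 14.3 through 24.2 to 36.6 CPM under diet, so the ranges overlap between 25.9 and 36.6 CPM. Its log2 change was -1.03 ± 0.11 (adjusted p = 1.46e-07, edgeR). Mat1a, which makes S-adenosylmethionine in hepatocytes, had medians of 33.3 and 44.7 CPM and rose by 0.55 ± 0.18 on the log2 scale (adjusted p = 0.014, edgeR). Tat, tyrosine aminotransferase, had medians of 9.69 and 11.1 CPM (log2 change 0.12 ± 0.20, adjusted p = 0.646, edgeR), and passed as higher without control ZT6 replicate 2 (0.53, adjusted p = 0.0109). Hpd, the next enzyme of tyrosine breakdown, had medians of 30.7 and 29.4 CPM (log2 change -0.30 ± 0.14, adjusted p = 0.0873, edgeR). It passed as lower without control ZT6 replicate 1 (adjusted p = 0.00814), without diet ZT12 replicate 2 (adjusted p = 0.0425) and when genes of low counts were kept in the fit (adjusted p = 0.0401).

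The nuclear receptor genes were low. Hnf4a, a regulator of hepatocyte identity, had a median of 3.94 CPM (0.431 to 6.92) in controls and 7.17 CPM (3.35 to 14.0) under diet, a log2 change of 1.08 ± 0.36 (adjusted p = 0.0149, edgeR). Its highest library was diet ZT6 replicate 1. Nr1i3, the constitutive androstane receptor, was at 0.0364 to 0.677 CPM in controls and 0 to 0.909 CPM under diet, and no difference was detectable at this depth (log2 change 0.43 ± 0.58, adjusted p = 0.576, edgeR).

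**Figure D3:**
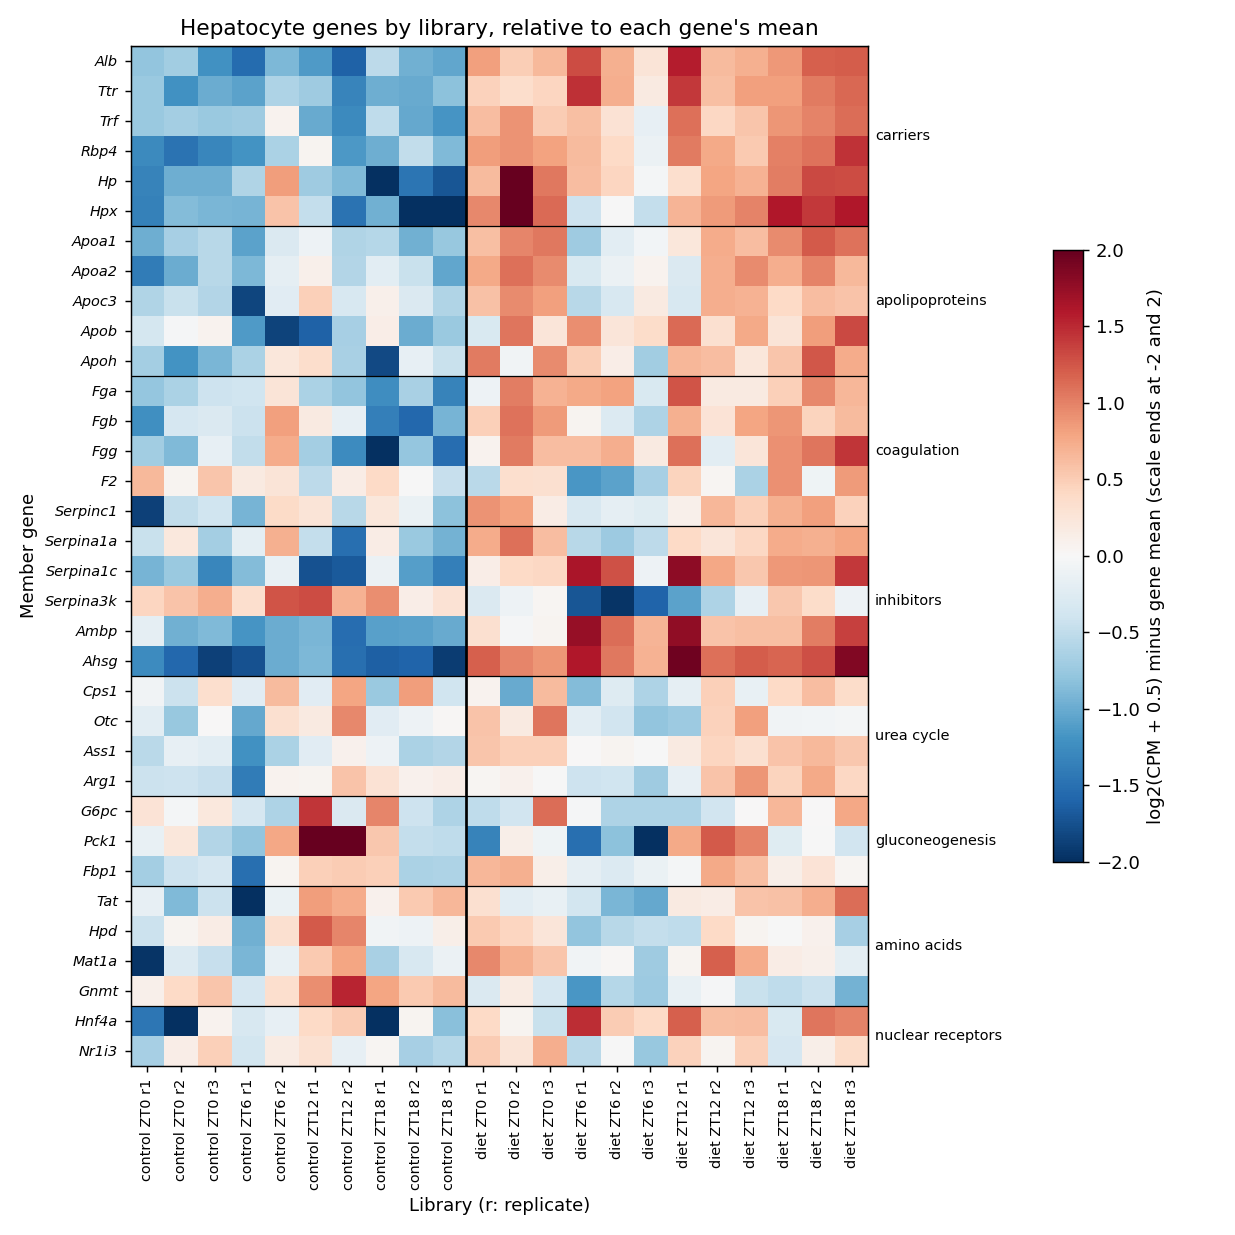
Level of the 34 members (rows, by role) in the 22 libraries (columns; control left of the thick line, diet right), as log2(CPM + 0.5) minus each gene's mean over libraries, with the colour scale ended at -2 and 2. Carrier rows are mostly blue in control and red in diet libraries, Serpina3k and Gnmt show the opposite, and most enzyme rows show no such split at the line.

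To compare abundant with less abundant genes, levels were also divided by exon length, taken over all annotated exons of a gene merged. That length can exceed any single transcript, so the order of close values is uncertain. The secreted members had a median of 12.2 CPM per kb (0.187 to 60.3) in controls and 26.5 CPM per kb (0.491 to 220) under diet. The enzyme members had a median of 7.29 CPM per kb (0.161 to 42.1) in controls and 8.81 CPM per kb (0.126 to 20.4) under diet. Per length, Alb was at 58.1 CPM per kb in controls and 220 CPM per kb under diet, and Cps1 at 0.70 and 0.649 CPM per kb. Gnmt was the most abundant enzyme per length in controls, at 42.1 CPM per kb. With both diets averaged, 7 secreted members (Alb, Ttr, Trf, Apoa1, Apoa2, Ambp and Ahsg) stood above every enzyme; their log2 diet changes had a median of 1.77 (1.10 to 2.73), while the other 14 secreted members had a median of 1.14 (-1.33 to 1.95). That split uses the diet levels, and so the change itself: in controls Gnmt lay above Ttr (31.7 CPM per kb), Apoa1 (26.5) and Ahsg (15.7). By the control level alone, 4 secreted members (Alb, Trf, Apoa2 and Ambp) stood above every enzyme. Apoa2 did so narrowly, at 44.2 against 42.1 CPM per kb for Gnmt. These 4 members had a median log2 change of 1.65 (1.10 to 1.97), and the other 17 had a median of 1.23 (-1.33 to 2.73). These medians are descriptions with no test.

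Summed per library, the secreted members lay at 539.7 to 1056 CPM (median 698) in controls and at 1354 to 3057 CPM (median 2088) under diet, without overlap. The enzyme members lay at 97.6 to 379 CPM (median 193) in controls and at 129.5 to 301 CPM (median 221) under diet, so these ranges overlap broadly. The log2 ratio of the mean sums, diet over control, was 1.63 for the secreted and 0.03 for the enzyme members. The secreted sum was 1.42 to 6.32 times the enzyme sum in controls and 6.21 to 17.3 times under diet, and only control ZT6 replicate 1 (6.32) and diet ZT12 replicate 2 (6.21) crossed. Alb made up 13.8% to 24.4% of the secreted sum in controls and 17.5% to 27.2% under diet, and without Alb the log2 ratio of the secreted sums was 1.56.

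**Figure D4:**
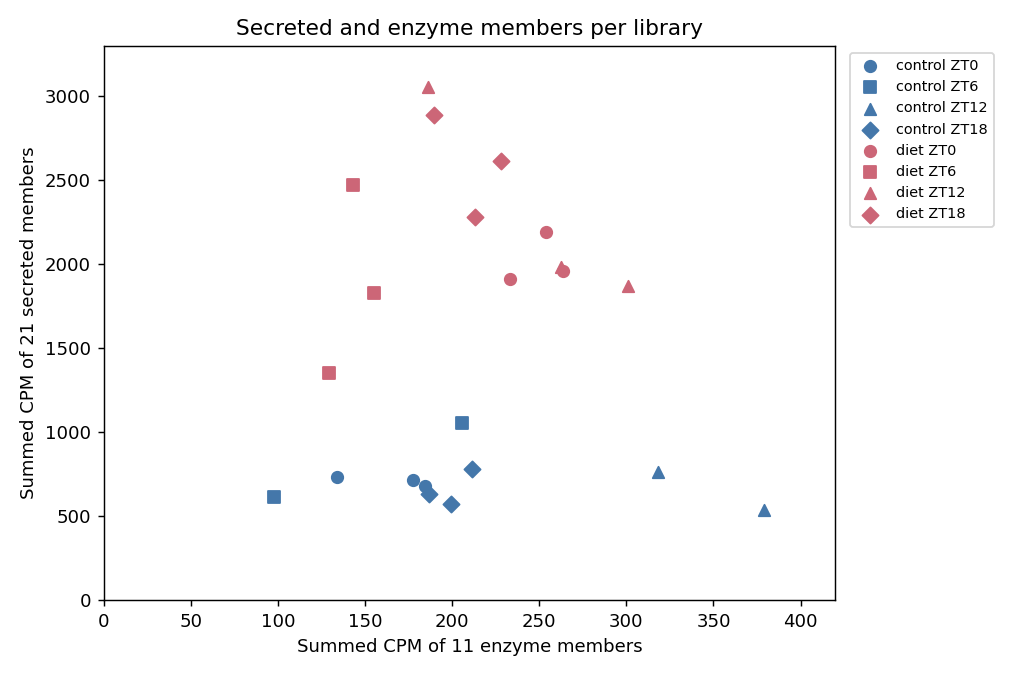
Summed CPM of the 21 secreted members (y axis) against that of the 11 enzyme members (x axis) in each library; colour gives the diet and the symbol the zeitgeber time. Diet libraries lie at 1354 CPM or more on the y axis and controls at 1056 CPM or less, while both cover much the same range on the x axis; the control ZT12 libraries lie furthest right.

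Within the diet group, the secreted and enzyme sums lay on the same side of their medians in some libraries and on opposite sides in others. Diet ZT6 replicate 3 had the lowest value of both, 1354 and 129.5 CPM, and diet ZT18 replicate 2 was above the diet median in both, with 2615 and 228 CPM. Diet ZT12 replicate 1 had the highest secreted sum, 3057 CPM, and held the highest value of its group for 12 of 21 secreted but 0 of 11 enzyme members. The same library had the highest cholangiocyte marker sum, 5045 CPM, and the highest macrophage marker sum, 2350 CPM, of all 22. Of the cholangiocyte markers, Krt8, Krt18 and Krt19 were highest there, but Spp1, Krt7, Epcam and Sox9 were highest in diet ZT6 replicate 1. Diet ZT6 replicate 1 had the second-highest cholangiocyte sum, 4969 CPM, with a secreted sum of 2472 CPM and an enzyme sum of 143 CPM. Among controls, ZT6 replicate 2 held the higher value of its pair for 32 of 34 members, and its macrophage marker sum of 1913 CPM was above the 282 to 541 CPM of the other controls. Whether these marker levels have a part in the members' values was not tested.

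At each time taken alone, the diet comparison gave the following counts. At ZT0, 20 of 34 members were higher and 0 lower (17 of 21 secreted and 3 of 11 enzyme members higher), beside 13.5% of tested genes higher and 16.5% lower. At ZT6, 8 were higher and 4 lower, beside 14.8% and 15.3%. At ZT12, 14 were higher, all of them secreted, and 3 lower, beside 14.3% and 15.3%. At ZT18, 18 were higher, 17 of them secreted, and 1 lower, beside 15.3% and 15.5%. Median log2 changes of the secreted members were 1.41, 0.40, 1.36 and 1.87 at the 4 times, and of the enzyme members 0.49, -0.02, -0.32 and 0.37. Of the 5 erythroid markers 4 were higher at ZT0, 5 at ZT18 and 0 at ZT6 and ZT12 (at an unadjusted p under 0.05 also 0 at ZT6 and ZT12), and their part was not tested.

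With all libraries kept, ZT6 was the time with fewest members higher. Its order against ZT12 is uncertain, as only 2 control libraries stand at each of these times. Those that rose there were Alb (2.02), Ttr (1.72), Rbp4 (1.25), Apob (2.37), Serpina1c (1.6), Ambp (2.34), Ahsg (2.50) and Ass1 (0.94), as log2 changes. Those that fell were Serpina3k (-2.76), Pck1 (-1.70), F2 (-1.25) and Gnmt (-0.86). Without control ZT6 replicate 2 the number lower at ZT6 went from 4 to 1, and without control ZT6 replicate 1 to 6. At ZT12 the number higher went from 14 to 7 without control ZT12 replicate 2, so single-time counts lean on single control libraries. Without both control libraries that stand apart, Fgg was no longer called at ZT0 (adjusted p = 0.062, edgeR).

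The 4 times were then compared within each diet. In controls 5 of 34 members differed between times at an adjusted p under 0.05 (edgeR F test), beside 5.74% of all tested genes: Hp, Fgb, Pck1, Hpd and Gnmt. Pck1 was at 32.1 and 37.8 CPM in the control ZT12 libraries and at 4.16 to 13.2 CPM in the other 8 (adjusted p = 0.00632). Lights off was thus the time of its highest level, 5.09 times the mean at ZT0. Hpd was at 68.0 and 57.4 CPM at ZT12 and at 14.6 to 36.4 CPM otherwise (adjusted p = 0.0283), and Gnmt at 62.8 and 94.7 CPM against 25.9 to 56.8 CPM (adjusted p = 0.0232). For 11 of 11 enzyme members the highest control mean was at ZT12, although 3 of the 11 passed the test; ZT12 held the highest control mean for 22% of all tested genes. The erythroid marker sum was also highest there, 3256 and 2641 CPM in the control ZT12 libraries against 1212 to 2102 CPM in the other controls, and 5 of 5 erythroid markers were called over times in controls; their part was not tested. Without both control libraries that stand apart, 9 members passed.

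These time calls in controls each rest on few libraries. Pck1 was lost without control ZT12 replicate 2 (adjusted p = 0.0551). Gnmt was lost without control ZT12 replicate 2 (0.205) or ZT6 replicate 1 (0.0599), and Hpd without control ZT12 replicate 1 (0.233), ZT12 replicate 2 (0.0794) or ZT18 replicate 2 (0.0516), as adjusted p-values. Hp, at 17.4 and 48.1 CPM at ZT6 and 4.58 to 9.43 CPM at ZT18 (adjusted p = 0.00778, edgeR), was lost without control ZT6 replicate 2 (0.13). Fgb (adjusted p = 0.0191, edgeR) was lost without control ZT6 replicate 2 (0.0534), ZT18 replicate 1 (0.061) or ZT18 replicate 2 (0.0754).

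Under diet 4 of 34 members differed between times, beside 1.08% of all tested genes: Apoa1, Hpx, Serpina3k and Pck1. Pck1 again had its highest level at ZT12, with 13.1, 18.5 and 15.5 CPM against 1.51 to 8.24 CPM in the other 9 diet libraries (adjusted p = 0.0297, edgeR). Serpina3k was at 4.26, 3.50 and 4.63 CPM at ZT6, at 12.2, 14.0 and 15.4 CPM at ZT0, at 6.89, 9.64 and 13.4 CPM at ZT12 and at 22.2, 19.6 and 14.0 CPM at ZT18 (adjusted p = 0.00492, edgeR). The ZT6 libraries were thus the lowest of the 12. Apoa1 was at 30.8, 43.8 and 48.6 CPM at ZT6 and at 59.2 to 119 CPM at the other times (adjusted p = 0.0086, edgeR), and Hpx at 26.1, 34.8 and 24.9 CPM at ZT6 against 56.5 to 161 CPM (adjusted p = 0.0441, edgeR). Both again had no overlap between ZT6 and the other times. For 11 of 11 enzyme and 14 of 21 secreted members the lowest diet mean was at ZT6, and for 13 of 21 secreted members the highest was at ZT18; among all tested genes these shares were 20.9% lowest at ZT6 and 30.6% highest at ZT18. The erythroid marker sum was 1386 to 1682 CPM in the diet ZT6 libraries, 2320 to 3620 CPM at ZT0 and ZT12 and 2735 to 4774 CPM at ZT18, and 5 of 5 of these markers were called over times under diet; their part was not tested. The calls of Apoa1 and Serpina3k held with any 1 library left out, whereas that of Hpx was lost in 13 of the 22 cases (highest adjusted p 0.14) and that of Pck1 in 7 (highest 0.0807).

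Whether the diet difference itself changes with time was tested as the interaction of diet and time. It passed for 5 of 34 members, all secreted, beside 0.959% of all tested genes: Hpx and Serpina3k (adjusted p = 0.0183 each), Hp (0.0208), Fgb (0.0286) and Apoa1 (0.045, all edgeR). Hp was at 10.3, 13.3 and 13.4 CPM in control and 41.9, 110 and 56.3 CPM in diet libraries at ZT0, and at 17.4 and 48.1 CPM in control and 41.3, 36.3 and 26.1 CPM in diet libraries at ZT6. At ZT18 it was at 4.58, 9.43 and 7.83 CPM in control and 54.9, 67.1 and 66.6 CPM in diet libraries. Diet and control libraries were thus apart at ZT0 and ZT18 and overlapped at ZT6. Hpx showed the same order: 13.4 to 19.01 CPM against 68.3 to 161 CPM at ZT0, 18.1 and 52.0 CPM against 24.9 to 34.8 CPM at ZT6, and 7.56 to 17.8 CPM against 93.5 to 107 CPM at ZT18. Fgb was at 11.8 and 28.7 CPM in control and 10.3 to 16.7 CPM in diet libraries at ZT6, and at 5.10 to 8.17 CPM against 22.1 to 30.2 CPM at ZT18. Serpina3k differed the other way, lower under diet at ZT6 and ZT12 (log2 change -2.76 and -1.64). At ZT0 it was not called, though its diet libraries (12.2 to 15.4 CPM) lay below its control libraries (20.4 to 25.3 CPM). At ZT18 it was not called and the ranges overlapped, 14.0 to 22.2 CPM under diet against 16.6 to 29.0 CPM.

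Without control ZT6 replicate 2, the control library with the highest macrophage marker sum, 0 of the 34 members passed the interaction: Serpina3k was at an adjusted p of 0.0606, Hp at 0.0676, Hpx at 0.0743, Fgb at 0.103 and Apoa1 at 0.136 (edgeR; 166 of all tested genes passed, against 215 with all libraries). At an unadjusted p under 0.05, 15 of 34 members passed with all libraries, beside 3241 of 22409 tested genes. DESeq2 called 12 members, beside 1464 of all genes.

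**Figure D5:**
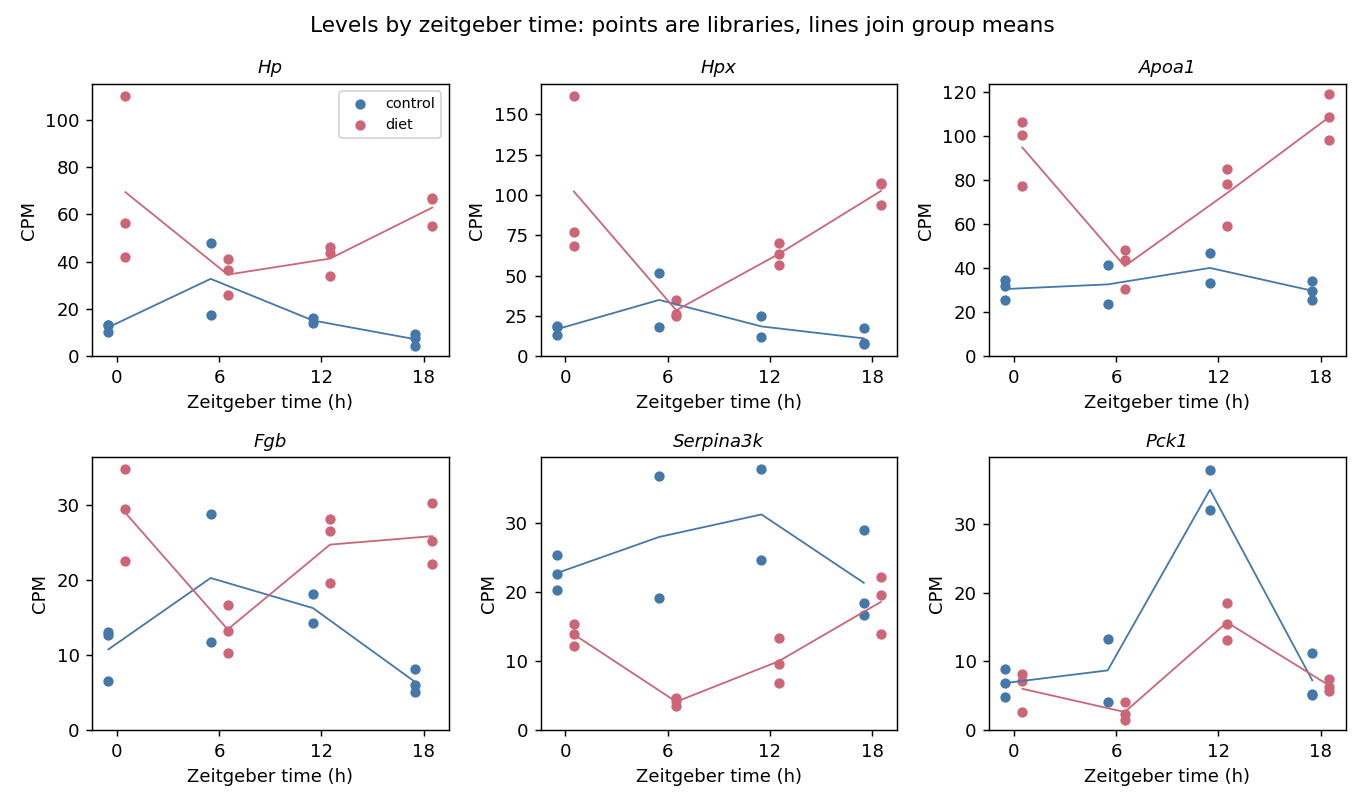
CPM (y axis, from 0) of 6 members by zeitgeber time (x axis, hours), with libraries as points and lines joining the group means of control and diet. Hp, Hpx, Apoa1 and Fgb lie apart between the diets at ZT18 and meet at ZT6, Serpina3k is lowest in the 3 diet ZT6 libraries, and Pck1 is highest at ZT12 in both diets.

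Other hepatocyte genes, in lists assembled by textbook function with earlier results of these data known, were counted over the 4 times together. There, 27.5% of all tested genes were higher and 24.9% lower. Of 37 further secreted protein genes 36 were tested (Apoc2 had too few counts), 25 rose and 1 fell, with a median log2 change of 1.41. Gc, the vitamin D-binding protein, rose by 2.68 ± 0.19, Agt, angiotensinogen, by 2.38 ± 0.21 and Proc, protein C, by 1.71 ± 0.15 on the log2 scale. The one that fell was Serpina1e (-2.44 ± 0.26), a further near-copy of Serpina1a, named here after its value was seen; it ran from 30.0 to 143 CPM in controls and from 2.77 to 25.4 CPM under diet. Of 34 further metabolic enzyme genes 13 rose and 7 fell, with a median of 0.32: Haao and Kmo, both of the kynurenine pathway, rose by 1.57 ± 0.11 and 2.27 ± 0.19, and Aass, of lysine breakdown, fell by 3.52 on the log2 scale, from 120.2 to 578 CPM in controls to 18.8 to 38.3 CPM under diet.

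Of 14 acute-phase genes 8 rose and 2 fell, with a median of 1.21. Cp, ceruloplasmin, rose by 1.86 ± 0.16 and Crp, C-reactive protein, by 2.04 ± 0.18, and those that fell were Lbp, the lipopolysaccharide-binding protein (-3.90 ± 0.15), and Lrg1 (-1.11 ± 0.20, named after its value was seen). Lrg1 was highest in control ZT6 replicate 2, at 219 CPM. Of 13 hepatocyte transcription factor genes 8 rose and 1 fell, with a median of 1.25: Prox1 rose by 1.66 ± 0.22, Foxa2 by 1.15 ± 0.24, and Nr5a2, LRH-1, fell by 2.31 on the log2 scale. Several of these genes are also made by non-parenchymal cells, and the share of each source was not tested.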

How the data were processed

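RNA of 22 libraries (10 control, 12 diet, 4 zeitgeber times) was read as the authors' deposited table of raw read counts per gene. The submitters' processing notes name STAR 2.7.9a, HTSeq and DESeq2 with GRCm38 (mm10); for the annotation and the strand setting of the counting, nothing is given in the sources used here, so reads of overlapping or antisense genes may not be separated. A deposited table of normalised values was not used.

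Counts were tested with edgeR 4.0.16 (R 4.3.3, limma 3.58.1): filterByExpr over the 8 groups, TMM scaling, a quasi-likelihood fit with 1 mean per group over all 22 libraries, and Benjamini-Hochberg adjustment over the 22409 genes tested. Contrasts were diet minus control averaged over 4 times or at each time, and F tests of time within each diet and of the interaction. SE is the size of the log2 change divided by the square root of F. CPM are TMM-scaled. Sums over members got no test. All 34 members are named, and in each other list the 3 genes with the smallest p. The members and lists were chosen with earlier results of these data known.

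Gene places, exon lengths and shared 50-base stretches come from GENCODE M21 on GRCm38, promoter windows from RefSeq on GRCm38.p6. Control ZT6 and ZT12 hold 2 libraries each, which limits precision there. Tested on simulated data with 200 changed genes, the fit over all times recovered 95.5% of 2-fold changes (3.54% false calls), the diet fit at ZT6 86.5% of 4-fold changes, and the interaction 74.5% of 4-fold changes. The changed genes were drawn from those with a mean above 4 CPM, and every other gene was left unchanged. These rates thus do not cover members below that level, such as Cps1, G6pc and Nr1i3. Nor do they cover a shift as broad as in these data, where 27.5% of tested genes were higher and 24.9% lower under diet. Libraries of a group differed by more than counting noise in every pair (chi-square over its degrees of freedom at least 17.5). Alternatives were RLE or library-size scaling, other filters, DESeq2 1.42.0, a replicate block, fits on only the groups compared, and each library left out; leaving out the 2 control libraries that stand apart, or the CT010467.1 entry, was added after seeing the data.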

Additional observations from a re-analysis of the deposited data

Results flagged for a closer look

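For 5 secreted members the diet difference changed with zeitgeber time by the interaction test (edgeR, adjusted over all tested genes): Hpx (adjusted p = 0.0183), Serpina3k (0.0183), Hp (0.0208), Fgb (0.0286) and Apoa1 (0.045). Hp, Hpx, Fgb and Apoa1 lay apart between diets at ZT18 and overlapped at ZT6, and Serpina3k was lowest in the 3 diet ZT6 libraries. All 5 missed the threshold without control ZT6 replicate 2 (adjusted p 0.0606 to 0.136), the control library with the highest macrophage marker sum, and the part of that difference was not tested. Apoa1 also missed it without each of 14 other libraries, Fgb without each of 6 others, and Hp, Hpx and Serpina3k without 1 other each.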

How the results depend on the processing

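Over the 4 times together, with each library left out in turn, 22 to 25 members were higher and 2 to 4 lower. Of the 25 members called there, 24 kept their call and direction under every alternative that tested them, and Pck1 lost it in the case given above. The median log2 change of all tested genes moved from 0.08 to 0.25 with library size only. The log2 ratio of mean sums stayed between 1.56 and 1.81 for the secreted and between -0.18 and 0.19 for the enzyme members.

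The time tests moved most. With no filter on low counts, DESeq2 and only the groups compared, 20, 10 and 1 members differed between times in controls (5 as reported) and 20, 13 and 8 under diet (4), and of all genes 2866, 3103 and 241 (1287) and 1500, 1128 and 418 (241). The interaction gave 19 members and 2085 genes with no filter, and 12 and 1464 with DESeq2 (5 and 215). A mean CPM of at least 5 gave 8 members in controls, and 425 genes under diet and 388 for the interaction. Without both control libraries that stand apart, 9 members differed in controls, 632 genes under diet and 1004 for the interaction; library size only gave 561 genes under diet and 2 members lower at ZT6 (4). At ZT0, 1 member was lower with no filter, with the replicate block and with only the groups compared (0). The cause was not tested.

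The replicate numbers did not pair the libraries (same-number correlations -0.143 to 0.138, median -0.00464). With the replicate block the interaction gave 123 genes, and of the members' calls only Hpx over times under diet was lost (adjusted p = 0.0647, edgeR).

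Leaving out each library in turn gave 0 to 1 members lower at ZT0, 1 to 6 lower at ZT6, and 7 to 14 higher at ZT12 (2114 to 3384 of all genes). It gave 3 to 7 members over times in controls (790 to 1957 genes), 2 to 6 under diet (96 to 663) and 0 to 8 for the interaction (76 to 1086). Uncalled members changed sign: Otc ranged from -0.0203 to 0.34, Tat from -0.0629 to 0.53 and G6pc from -1.34 to 0.60, and G6pc was at 0.44 without both control libraries that stand apart. G6pc and Nr1i3 are limited by depth.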
